A study of Mus musculus with 11 samples.

Results

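The mitochondrial ribosomal protein genes encode the proteins of the ribosome inside mitochondria. They were taken as the protein-coding genes whose name in both deposited tables starts with Mrpl or Mrps and a number, Mrpl for the large subunit and Mrps for the small. This rule found 76 of 14667 genes, 47 named for the large subunit and 29 for the small, and all 76 had a test in both tables. The libraries were made from the nucleus accumbens of C57/BL6 mice, 1 mouse per library, a ventral striatal region with a part in reward. The groups were 4 mice with viral overexpression of E2F3a and saline, 3 mice with viral overexpression of green fluorescent protein (GFP) and cocaine, and 4 mice with viral overexpression of GFP and saline. E2F3a is a variant of the cell cycle transcription factor E2F3, and cocaine is a stimulant that blocks dopamine reuptake. All groups carried a virus, and the labels give neither its promoter nor the age or sex of the mice. Dissected tissue holds many cell types, so fewer cells of a type and less RNA per cell cannot be told apart.

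Mitochondria keep a small genome of their own, and the mitochondrial ribosome translates only the membrane proteins it encodes, which are core parts of the respiratory chain and of the ATP synthase. Its RNA comes from mitochondrial DNA, but all of its proteins are encoded in the nucleus, made in the cytosol and imported. Some are counterparts of bacterial ribosomal proteins, and others were added in the lineage that leads to mitochondria. Loss of single members in mice or humans lowers respiratory chain activity, and neurons depend heavily on respiration.

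The values are the authors' statistics for 2 comparisons, E2F3a with saline over GFP with saline and GFP with cocaine over GFP with saline. The 4 mice with GFP and saline serve in both comparisons, which are therefore not independent, and the values are given side by side. Values for single mice and the depth of the libraries are not in the tables used here. A negative log2 fold change means lower in the E2F3a mice or in the cocaine mice. Each 95% interval follows from a gene's deposited fold change and t statistic, taken with 11.29 degrees of freedom. A gene counted as changed at an adjusted p under 0.05 in the authors' moderated test.

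Start regions of 5 genes and the gap between another pair of genes are printed as reference points for the results. Mrps6, Mrps7 and Mrpl14 had the 3 smallest unadjusted p of the members in the cocaine comparison, Mrps12 carries E2F letters, and Mrpl22 carries letters bound by 2 known activators of mitochondrial genes. The sequences are from RefSeq on GRCm38.p6, the assembly also called mm10, and each holds the 200 bases before the RefSeq start on the strand of the gene. Capitals mark every match, on either strand, to the letters searched for below. In Mrpl14 (chr17:45686149-45686348, plus strand) they mark GGGCGG, the GC box, or its complement, with first bases 190, 185, 152 and 52 bases before the start. The letters at 190 and 185 overlap.
Mrpl14: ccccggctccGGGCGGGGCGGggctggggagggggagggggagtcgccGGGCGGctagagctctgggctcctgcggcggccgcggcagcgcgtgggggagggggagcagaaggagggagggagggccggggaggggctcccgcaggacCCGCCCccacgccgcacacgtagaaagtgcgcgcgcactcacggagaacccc
In Mrps6 (chr16:92058136-92058335, plus strand) capitals mark GC boxes 114, 109, 95 and 79 bases before the start, of which the letters at 114 and 109 overlap.
Mrps6: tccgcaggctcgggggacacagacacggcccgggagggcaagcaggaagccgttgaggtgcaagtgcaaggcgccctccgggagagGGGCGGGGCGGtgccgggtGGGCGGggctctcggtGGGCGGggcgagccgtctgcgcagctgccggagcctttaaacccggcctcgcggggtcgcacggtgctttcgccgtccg
In Mrps7 (chr11:115603940-115604139, plus strand) none of the motifs searched lies in the printed stretch.
Mrps7: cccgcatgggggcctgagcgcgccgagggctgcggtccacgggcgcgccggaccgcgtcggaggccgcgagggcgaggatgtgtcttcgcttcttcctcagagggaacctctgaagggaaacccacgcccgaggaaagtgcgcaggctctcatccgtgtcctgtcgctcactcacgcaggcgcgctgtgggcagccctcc
In Mrps12 (chr7:28741822-28742021, minus strand) capitals mark the complement of the YY1 letters AAGATGGC at 199 bases before the start. They also mark the E2F letters TTTCCCGC at 135, with a GC box complement at 131 that overlaps them, and the CCAAT box letters CCAAT at 156, 108, 68 and 19. The wider window searched below also holds ETS letters for Mrps12.
Mrps12: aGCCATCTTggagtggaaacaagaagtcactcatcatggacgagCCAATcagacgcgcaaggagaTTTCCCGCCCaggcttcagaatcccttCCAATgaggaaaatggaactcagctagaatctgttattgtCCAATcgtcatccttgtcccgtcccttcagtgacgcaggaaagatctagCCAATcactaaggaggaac
In Mrpl22 (chr11:58171464-58171663, plus strand) capitals mark the ETS letters CCGGAAG 53 bases before the start and the complement of the NRF1 letters GCATGCGC at 33.
Mrpl22: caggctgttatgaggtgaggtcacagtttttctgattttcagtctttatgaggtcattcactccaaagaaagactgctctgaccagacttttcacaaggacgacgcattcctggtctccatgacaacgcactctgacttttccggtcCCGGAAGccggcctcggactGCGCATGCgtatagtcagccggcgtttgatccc
Mrpl46, of the large subunit, and Mrps11, of the small, are read away from each other, with 41 bases between their RefSeq starts (chr7:78783090-78783130, given on the plus strand). The stretch shows how close members of both subunits can start, and its capitals mark a GC box. In GENCODE M21 the 2 genes overlap at their starts.
Mrpl46 to Mrps11: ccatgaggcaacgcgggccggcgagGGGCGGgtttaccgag

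With E2F3a, no gene of the mitochondrial ribosome passed the test, and most estimates lay a little below 0. Of the 76 genes, 0 were lower and 0 were higher at an adjusted p under 0.05, against 0% of all genes in each direction. The smallest adjusted p of a member in the authors' moderated test was 1.00. At an unadjusted p under 0.05, 0 members were lower, against 0.409% of all genes, and 0 were higher, against 0.545%. The estimate was below 0 for 69 of 76 members (90.8%), against 47.5% of all genes in the authors' deposited table. The median log2 fold change was -0.10 over the members and 0.01 over all genes of that table, so the middle member stood at 0.931 of its level in the GFP and saline mice. The median interval of a member reached 0.28 to each side, more than the median change itself. After a trend in transcript length and mean expression over all genes was removed, the members' median was -0.04 and that of all genes 0.01.

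With cocaine, too, no member passed the test, and the estimates again lay mostly below 0. Here 0 of 76 genes were lower and 0 were higher at an adjusted p under 0.05, against 0% of all genes in each direction, and the smallest adjusted p of a member was 0.533 in the authors' moderated test. At an unadjusted p under 0.05, 4 members (5.26%) were lower, against 7.51% of all genes, and 0 were higher, against 1.74%. At the share of all genes, 5.7 of the 76 members would be lower. The 4 lower members are near that number, so the count sets the members apart from other genes in no way. The estimate was below 0 for 70 of 76 members (92.1%), against 53.8% of all genes in the authors' deposited table. The median log2 fold change was -0.16 over the members and -0.02 over all genes, and the middle member stood at 0.898 of its level in the saline mice. The median interval reached 0.30 to each side. With the length and expression trend removed, the members' median was -0.04, against -0.02 for all genes.

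**Figure D1:**
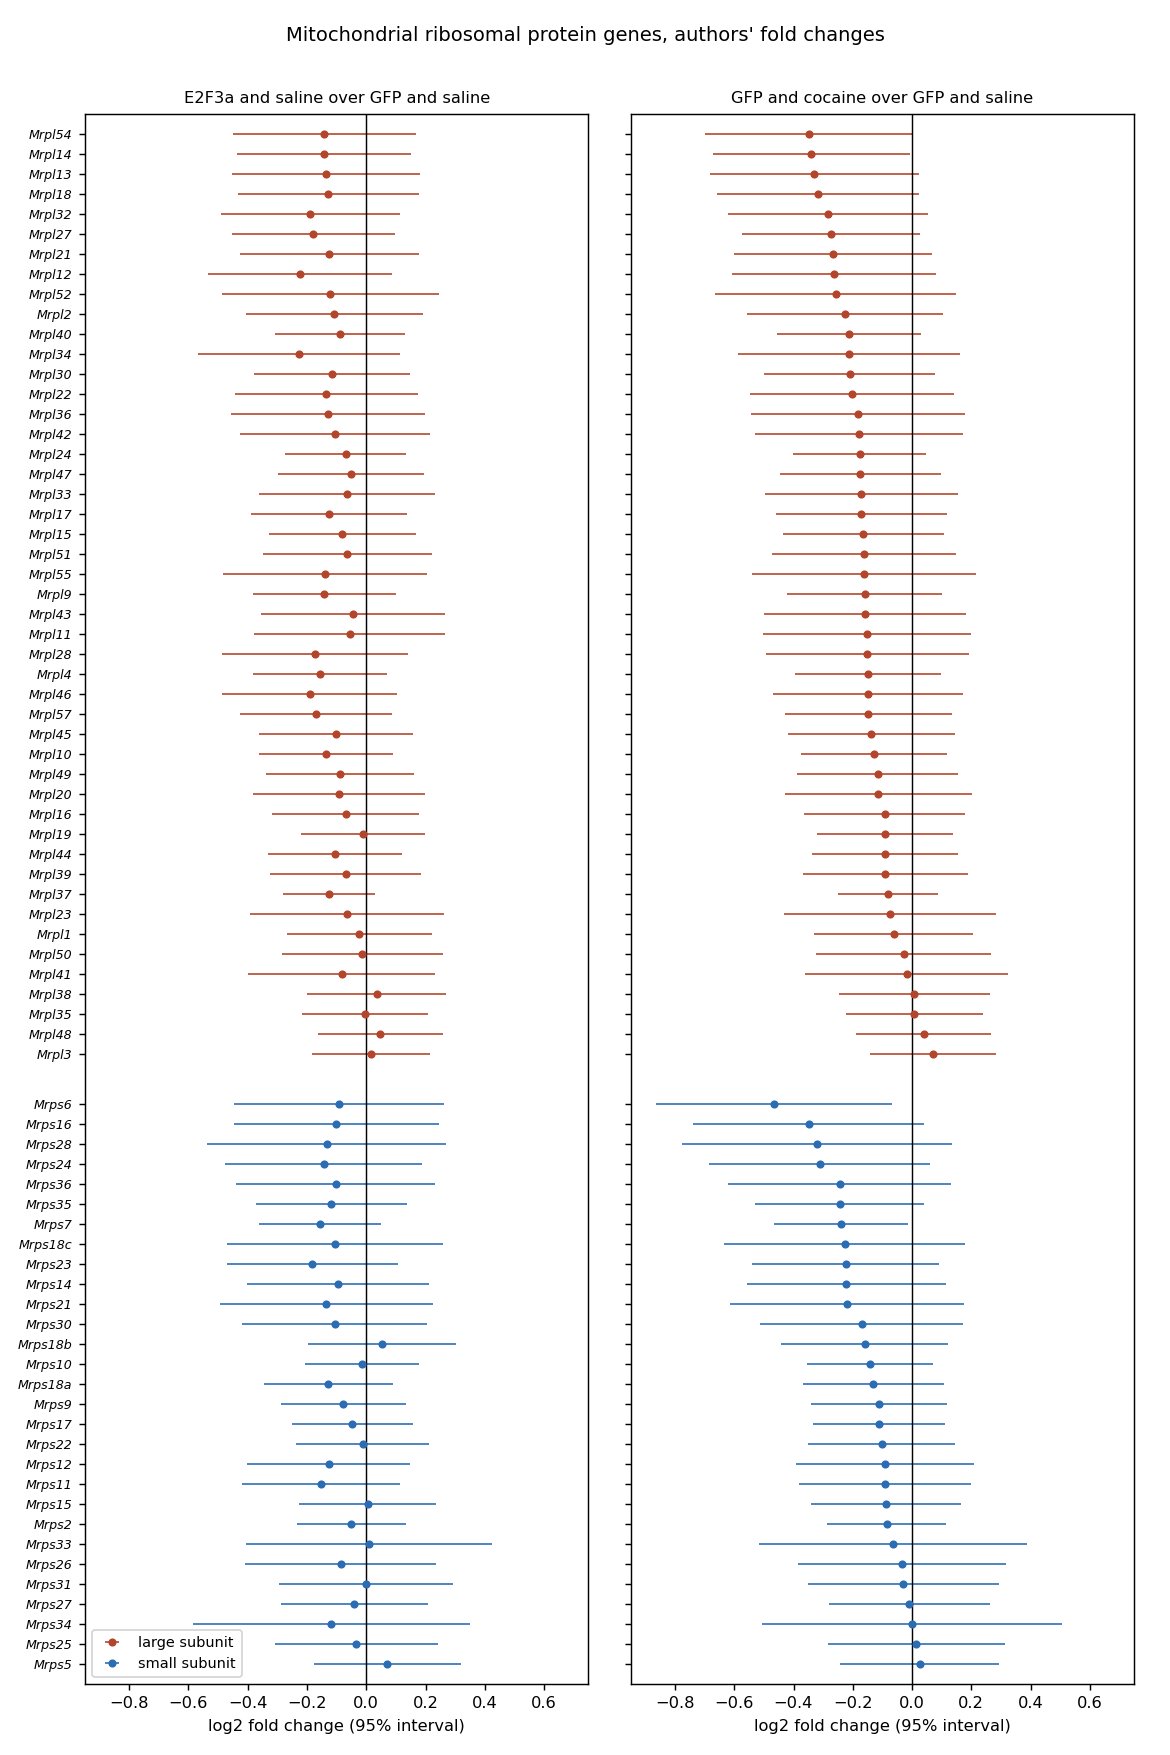
Log2 fold change of each of the 76 genes (points) with its 95% interval (lines), for E2F3a and saline over GFP and saline (left) and GFP and cocaine over GFP and saline (right), with large subunit genes above small subunit genes. Points crowd to the left of 0 in both panels, while the intervals of all members on the left and of all but 4 on the right include 0.

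The large and the small subunit differed little from each other. In the E2F3a comparison of the authors' deposited tables the median log2 fold change was -0.10 for the 47 large subunit genes and -0.10 for the 29 small subunit genes, a difference of -0.01. Estimates were below 0 for 44 of 47 large and 25 of 29 small subunit genes. In the cocaine comparison the medians were -0.16 for the large and -0.13 for the small subunit, a difference of -0.03, and 43 of 47 large and 27 of 29 small subunit genes were below 0. The spread between genes of a subunit, an SD of 0.10 for the large and 0.12 for the small subunit in the cocaine comparison, was larger than that difference. This spread is not the error of a median. With the length and expression trend removed, the cocaine medians were -0.03 for the large and -0.05 for the small subunit, so the difference turned to 0.02. Genes of a subunit are not replicates of a condition, so the difference between the subunits was not given a p.

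**Figure D2:**
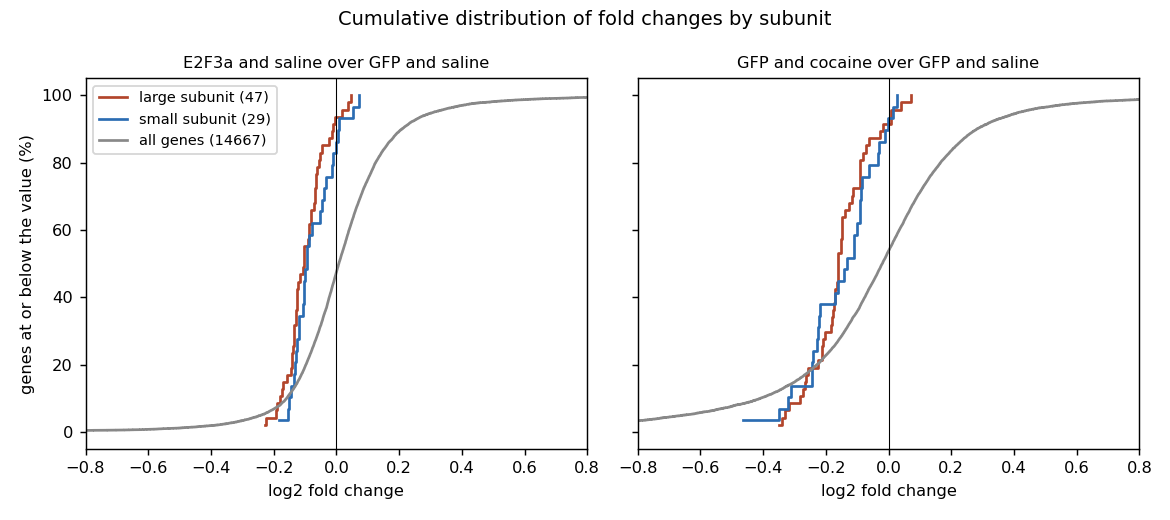
Cumulative share of genes (vertical axis, percent) at or below each log2 fold change (horizontal axis) for the 47 large subunit genes, the 29 small subunit genes and all 14667 genes, in the E2F3a comparison (left) and the cocaine comparison (right). Both subunit curves climb steeply between about the same values and cross 0 near the top, while the curve of all genes is wider and crosses 0 near its middle.

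Names and structure place a few proteins differently. Mrps30 and Mrps18a are named for the small subunit, but in mammalian structures their proteins sit in the large one, and the Mrps36 protein is known as a part of the 2-oxoglutarate dehydrogenase complex rather than of the ribosome. Proteins that the name rule misses, such as Dap3 and Ptcd3 of the small subunit and Ict1, a peptide release factor built into the large one, were added for an alternative with 51 large and 30 small subunit genes. The difference between the subunits was then -0.02 with E2F3a and -0.05 with cocaine in the authors' deposited tables. Mrps36 itself was listed at -0.10 (95% interval -0.44 to 0.23) with E2F3a and at -0.24 (-0.62 to 0.13) with cocaine, and Mrps30 at -0.11 and -0.17. Of the 3 paralogs related to bacterial S18, Mrps18a stood at -0.13 and -0.13, Mrps18c at -0.10 and -0.23, and Mrps18b at 0.05 and -0.16, in the E2F3a and the cocaine comparison of the authors' deposited tables. The interval of each of the 3 includes 0 in both comparisons.

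In the small subunit, the lowest estimate of any member with cocaine belonged to Mrps6, a counterpart of bacterial S6 in the platform. In the authors' deposited table for cocaine, Mrps6 (ENSMUSG00000039680, mm10 chromosome 16, 92058270 to 92112227, plus strand) was listed at -0.46 on the log2 scale (95% interval -0.86 to -0.07), which is 0.725 of the level in the saline mice. The unadjusted p of 0.0262 became 0.533 after the authors' adjustment of their moderated test, so it did not pass. Its GC-box promoter is printed above, and 19.9% of its exon bases are shared with other annotated genes, among them Slc5a3, an inositol transporter gene listed at 0.17 with cocaine. With E2F3a, the authors' deposited table lists Mrps6 at -0.09 (-0.45 to 0.26).

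Mrps7, which lies in the head where messenger RNA leaves the ribosome, had the smallest unadjusted p of the small subunit in the E2F3a comparison. The authors' deposited tables list Mrps7 (chromosome 11, 115603925 to 115608036, plus strand) at -0.16 with E2F3a (-0.36 to 0.05, unadjusted p 0.124) and at -0.24 with cocaine (-0.46 to -0.02, unadjusted p 0.0386). Its adjusted p with cocaine was 0.538 in the authors' moderated test, and its interval was the second of 2 in the small subunit to exclude 0. Mrps16, a body protein whose loss in humans impairs the respiratory chain, was listed at -0.35 (-0.74 to 0.04) with cocaine. Mrps24, near the entry of the messenger RNA channel, was listed at -0.31 (-0.69 to 0.06), Mrps35 at -0.24 (-0.53 to 0.04) and Mrps23 at -0.22 (-0.54 to 0.09) in the authors' deposited table for cocaine. All 4 intervals include 0.

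Further small subunit genes had small unadjusted p values only relative to their own group in the E2F3a comparison. In the authors' deposited table for E2F3a, Mrps23 stood at -0.18 (-0.47 to 0.11), Mrps11, a platform protein, at -0.15 (-0.42 to 0.11), Mrps35 at -0.12 (-0.37 to 0.14) and Mrps12, which lines the decoding centre, at -0.13 (-0.40 to 0.15). On the other side of 0, Mrps5, near the messenger RNA entry, was listed at 0.07 (-0.18 to 0.32), Mrps33 at 0.01 (-0.41 to 0.42) and Mrps15, a protein of the platform side, at 0.00 (-0.23 to 0.24) in the same table. With cocaine the 2 small subunit genes above 0 were Mrps5 at 0.03 and Mrps25 at 0.01 in the authors' deposited table. None of these genes differed from 0 by more than its interval.

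In the large subunit, Mrpl14 and Mrpl54 stood lowest by p with cocaine. Mrpl14 is a counterpart of bacterial L14 at the face that meets the small subunit. The authors' deposited table for cocaine lists Mrpl14 (ENSMUSG00000023939, chromosome 17, 45686322 to 45698495, plus strand) at -0.34 (-0.67 to -0.01), a fold of 0.790, with an unadjusted p of 0.0456 and an adjusted p of 0.539 in the authors' moderated test. Mrpl54, a protein without a bacterial counterpart, was listed there at -0.35 (-0.70 to -0.00), a fold of 0.785, with an unadjusted p of 0.0499. Both had intervals that ended close to 0. In the E2F3a comparison of the authors' deposited tables, Mrpl14 and Mrpl54 were at -0.14 each, with unadjusted p of 0.308 and 0.338.

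Other large subunit genes with small p in the cocaine comparison come from several regions of the particle. In the authors' deposited table for cocaine, Mrpl18, of the central protuberance, was listed at -0.32 (-0.66 to 0.02), Mrpl13 at -0.33 (-0.68 to 0.02), Mrpl27, which reaches toward the peptidyl transferase centre, at -0.27 (-0.57 to 0.03) and Mrpl40, also of the central protuberance, at -0.21 (-0.46 to 0.03). The highest large subunit estimates in that table were 0.07 (-0.14 to 0.28) for Mrpl3, beside the peptidyl transferase centre, 0.04 (-0.19 to 0.27) for Mrpl48, 0.01 for Mrpl35 and 0.01 for Mrpl38. These intervals all include 0.

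With E2F3a the smallest unadjusted p of any member was 0.104, for Mrpl37, a large subunit protein without a bacterial counterpart. Mrpl37 was listed at -0.13 (-0.28 to 0.03) with E2F3a and at -0.08 (-0.25 to 0.09) with cocaine in the authors' deposited tables. Its interval is narrow, with an SE of 0.07 that is the smallest of all members, so the low p comes with a modest estimate. Mrpl12, of the stalk that recruits translation factors, was listed at -0.22 (-0.53 to 0.09) and Mrpl34 at -0.23 (-0.57 to 0.11), the lowest estimates among the members in the authors' deposited table for E2F3a. Mrpl4, at the exit tunnel, stood at -0.16 (-0.38 to 0.07), Mrpl57 at -0.17 (-0.43 to 0.09) and Mrpl27 at -0.18 (-0.45 to 0.10) in the same table. Mrpl48, Mrpl38 and Mrpl3 were on the other side of 0 there, at 0.05, 0.04 and 0.02.

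Grouped by place in the particle, every region listed here had a negative median in both comparisons before the length and expression trend was removed. Not every member was placed in a region. In the authors' deposited tables the 3 stalk genes had medians of -0.14 with E2F3a and -0.15 with cocaine, and the 4 genes around the peptidyl transferase centre had -0.09 and -0.16. For the 7 genes around the exit tunnel, where new membrane proteins leave, the medians were -0.10 and -0.15, and for the 5 genes of the central protuberance -0.09 and -0.15. In the small subunit, the medians of the authors' values were -0.09 and -0.18 for 4 genes of the head, -0.10 and -0.22 for 7 of the body and platform, and -0.13 and -0.09 for 3 near the messenger RNA entry and decoding centre. With the trend removed, the median was 0.002 around the peptidyl transferase centre with E2F3a and 0.004 in the central protuberance with cocaine. All other medians of the regions stayed below 0. The groups are small, and their medians span less than the interval of a typical gene. That interval does not measure the error of a group median, and the differences between regions were not tested.

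Members with and without a bacterial counterpart both had negative medians before the length and expression trend was removed. The 46 members with a bacterial counterpart had a median of -0.11 with E2F3a and -0.17 with cocaine, and the 30 without one had -0.09 and -0.12, in the authors' deposited tables. Within the large subunit the cocaine medians were -0.17 for 30 genes with and -0.14 for 17 without a counterpart, and within the small subunit -0.18 for 16 with and -0.10 for 13 without. These gaps are again smaller than the interval of a single gene, but that interval is not the error of a group median. With the trend removed, the medians with and without a counterpart were -0.04 and -0.02 in the E2F3a comparison. In the cocaine comparison they were then -0.06 and -0.01. All genes stood at 0.01 with E2F3a and -0.02 with cocaine after the same step. The gaps were not tested.

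The members are short genes, and short genes as a whole lay lower in both comparisons. The longest protein-coding transcript of a member had a median of 1327.5 bases in GENCODE M21, against 3038 over all genes with a length. Over all 14601 genes with a length, the Spearman correlation of log2 fold change with transcript length was 0.36 in the E2F3a comparison and 0.35 in the cocaine comparison, as a description across genes, which are not independent replicates and share the same libraries. Over the 76 members it was 0.38 and 0.37. The correlation of log2 fold change with mean expression was 0.28 with E2F3a and 0.37 with cocaine over the members, and 0.04 and 0.14 over all genes.

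Genes of like length give a closer comparison. Between 1000 and 2000 bases, where 29 members fall, the median in the authors' deposited table for E2F3a was -0.11 for the members and -0.06 for the 2725 genes of that length. In the cocaine table the same medians were -0.15 and -0.14. For the 23 members of up to 1000 bases the authors' values had medians of -0.13 with E2F3a and -0.20 with cocaine, against -0.05 and -0.11 for all genes of that length. The 15 members of 2000 to 4000 bases had -0.06 and -0.15, against -0.01 and -0.04, and the 9 longer ones -0.05 and -0.09, against 0.07 and 0.09. One of the 9 longest is Mrps35, at 4162 bases. In both comparisons the gap to all genes was narrower in each range up to 4000 bases than over all lengths. It was narrowest between 1000 and 2000 bases, and wider than over all lengths only above 4000 bases, where 9 members fall. The members' median was below that of other genes in each length range, and the part that length plays in the members' values was not tested.

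**Figure D3:**
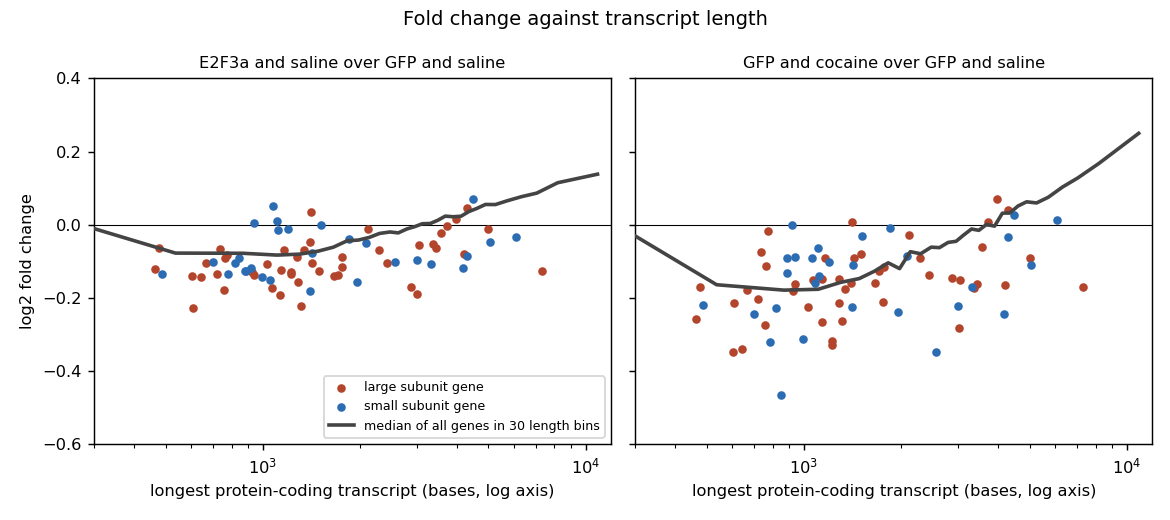
Log2 fold change (vertical axis) against the length of the longest protein-coding transcript (horizontal log axis, bases) for the large and small subunit genes (points), with the median of all genes in 30 length bins (line), in the E2F3a comparison (left) and the cocaine comparison (right). The line of all genes climbs with length beyond about 1000 bases, and members of all lengths lie around it and below it.

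E2F3a and cocaine mice can also be set against each other, since the shared GFP and saline mice drop out of the difference between the authors' deposited tables. The median difference, E2F3a with saline minus GFP with cocaine, was 0.06 on the log2 scale over the members and 0.03 over all genes. It was 0.04 for the large subunit and 0.07 for the small. The difference was above 0 for 59 of 76 members (77.6%), against 57.7% of all genes. The tables give no error for this difference, so it was not tested.

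The members were expressed at moderate and unequal levels. The level is the authors' mean log2 expression over the libraries of the fit less the log2 of transcript length in kilobases, a scale per length on which genes can be compared. Its median was 4.08 for the large subunit (SD 0.92 between genes, n = 47), 3.74 for the small subunit (SD 1.07, n = 29) and 3.13 for all genes. On the same scale the 80 cytosolic ribosomal protein genes had a median of 7.69 and the 83 nuclear respiratory chain genes 6.04, so both stood above the mitochondrial ribosome. The medians of the subunits differ by less than the SD within either of them.

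The 3 highest large subunit genes on the level scale per kilobase were Mrpl33 at 5.56, Mrpl27 at 5.44 and Mrpl42 at 5.40, and the 3 highest of the small subunit were Mrps21 at 5.58, Mrps33 at 5.30 and Mrps18a at 5.24, computed from the authors' deposited mean. The 3 lowest were Mrpl17 at 1.93, Mrpl32 at 2.14 and Mrpl1 at 2.24 in the large subunit, and Mrps34 at 1.36, Mrps35 at 1.55 and Mrps25 at 2.19 in the small. Mrps34 is needed for a stable small subunit in mice, and its level was 18.7-fold under that of Mrps21. The order depends on which reads could be counted and on the transcript chosen for the length. In the annotation, 77.8% of the exon bases of Mrps34 are shared with Mapk8ip3 and Nme3, and 69.8% of those of Mrps25 with Nr2c2. Of the 76 members, 31 share any exon base with another gene and 17 share over 10%, and those 17 had a median level of 3.74, against 4.05 for the other 59. How the authors counted reads in shared bases is not given in the sources used here, so levels and fold changes of these genes are uncertain, and the labelled library kit keeps no strand.

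**Figure D4:**
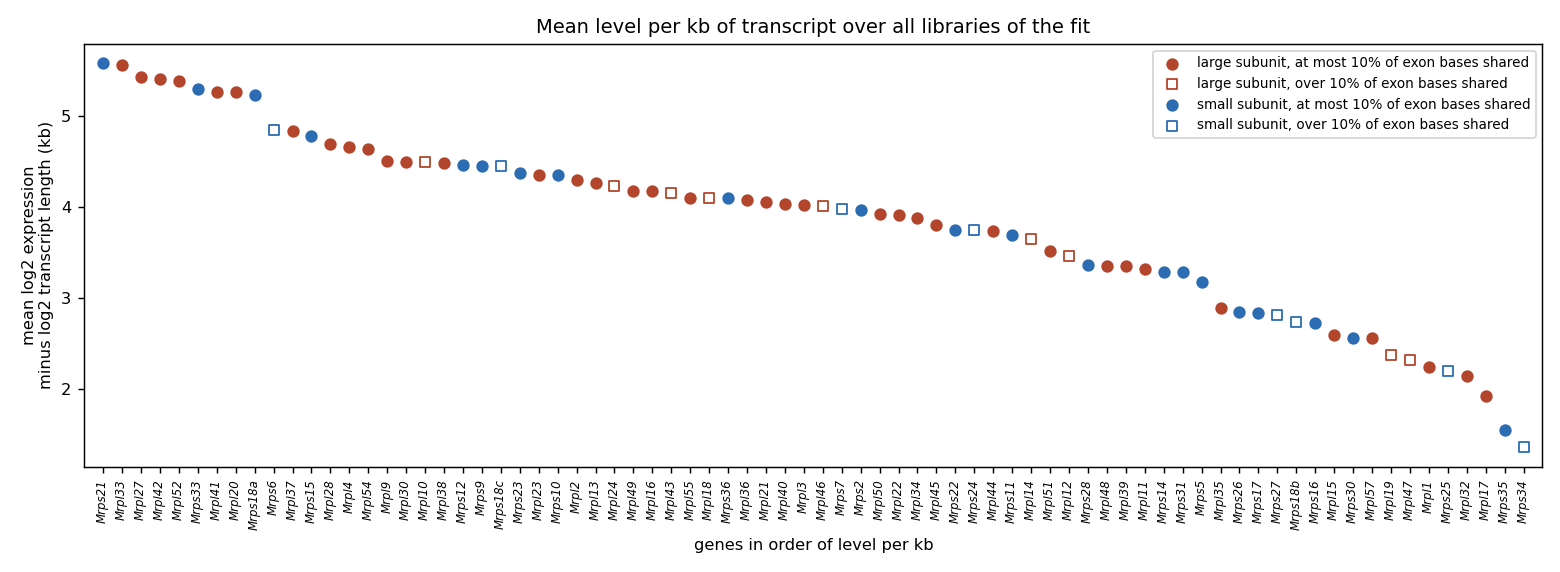
Level of each member (vertical axis, mean log2 expression minus log2 transcript length in kilobases) in falling order, for large and small subunit genes, with open squares for the 17 genes that share over 10% of their exon bases with another gene. Large and small subunit genes are mixed along the whole order, and open squares include the lowest gene, Mrps34.

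Many members start next to another gene. In GENCODE M21, 33 of 76 members (43.4%) have a protein-coding gene of the opposite strand that starts within 1000 bases of their own start, against 14.7% of 13239 protein-coding genes of the tables. Some neighbours serve the same organelle. Examples are Sars2, the mitochondrial seryl-tRNA synthetase, beside Mrps12, Ptcd2 beside Mrps27, the mitochondrial DNA helicase Peo1 beside Mrpl43, and the complex I subunits Ndufs6 beside Mrpl36 and Ndufb5 beside Mrpl47. The pair that joins both subunits, printed above, was listed with E2F3a at -0.19 (-0.49 to 0.10) for Mrpl46 and -0.15 for Mrps11, and with cocaine at -0.15 and -0.09, in the authors' deposited tables. In GENCODE M21 this pair shares exon bases, 12.2% of those of Mrpl46 and 7.97% of those of Mrps11. The 33 members with such a neighbour had medians of -0.12 with E2F3a and -0.16 with cocaine, and the other 43 had -0.09 and -0.15. The 26 neighbours in the tables that are not members themselves had -0.05 and -0.06. Single neighbours ranged widely with cocaine. Beside the members lowest by p, the authors' deposited table lists Gga3 next to Mrps7 at 0.11, Tmem63b next to Mrpl14 at 0.14 and Apba3 next to Mrpl54 at -0.03. At an unadjusted p under 0.05, 3 of the 26 were lower with cocaine, against 7.51% of all genes, and none of the 3 passed the adjusted p. They were Ska3 next to Mrpl57 at -0.61, Mtbp next to Mrpl13 at -0.54 and Ncapd2 next to Mrpl51 at -0.28. Mif4gd, which shares exon bases with Mrps7, was listed at -0.56 with cocaine (unadjusted p 0.0220) in the same table. With E2F3a, 1 of the 26 neighbours was higher at an unadjusted p under 0.05, against 0.545% of all genes, and 0 were lower, against 0.409%. The higher one was Zfp189 next to Mrpl50 at 0.37 (unadjusted p 0.0126 in the authors' moderated test), which did not pass the adjusted p.

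The start regions were searched for letters of factors known to act on mitochondrial genes. The promoter table of RefSeq, 250 bases before to 50 after each start, held 73 promoters for 67 of the 76 members. The ETS letters CCGGAAG, bound by GABP, were found on either strand in 32.9% of members' promoters, against 15.7% of the 13311 promoters of genes in the tables and 8.86% of all 32851 promoters. The NRF1 letters GCATGCGC were in 11.0%, against 4.85% and 2.71%, and the YY1 letters AAGATGGC in 16.4%, against 4.01% and 2.75%. In the large subunit the ETS, NRF1 and YY1 letters were in 28.3%, 15.2% and 13.0% of promoters. In the small subunit they were in 40.7%, 3.70% and 22.2%. The NRF1 share of the small subunit is 1 of 27 promoters, near the share of genes in the tables. GABP, NRF1 and YY1 are known regulators of nuclear genes for mitochondria. Some letters of general promoter elements gave shares near those of other genes of the tables, with CCAAT in 39.7%, against 37.2%, and TATAAA in 6.85%, against 7.19%. The E box CACGTG was in 9.59%, against 9.61%. The GC box GGGCGG was less frequent, in 53.4%, against 60.7%. Counted by gene, it was in 50.7% of members, against 67.8% of genes of the tables. It was in 41.5% of large and 65.4% of small subunit genes. A match is a description of letters and not of binding.

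Letters bound by E2F factors bear on the overexpressed protein. TTTGGCGC or TTTCCCGC on either strand was found in 2.74% of the members' promoters, against 2.59% of promoters of genes in the tables and 1.56% of all promoters. The matching members were Mrps12, whose letters are printed above, and Mrps23, both of the small subunit. With E2F3a, the authors' deposited table lists Mrps12 at -0.13 and Mrps23 at -0.18, and the 65 members with a promoter but no such letters had a median of -0.10. Members with and without the other letters lay close together. With E2F3a the medians of the authors' values were -0.11 for 24 members with ETS letters and -0.09 for 43 without, and with cocaine -0.17 and -0.14. For YY1 the medians were -0.13 for 12 members with and -0.09 for 55 without in the E2F3a comparison, and -0.12 and -0.16 with cocaine. For NRF1 they were -0.13 for 8 members with and -0.10 for 59 without in the E2F3a comparison, and -0.17 and -0.15 with cocaine. No difference between these groups was tested.

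**Figure D5:**
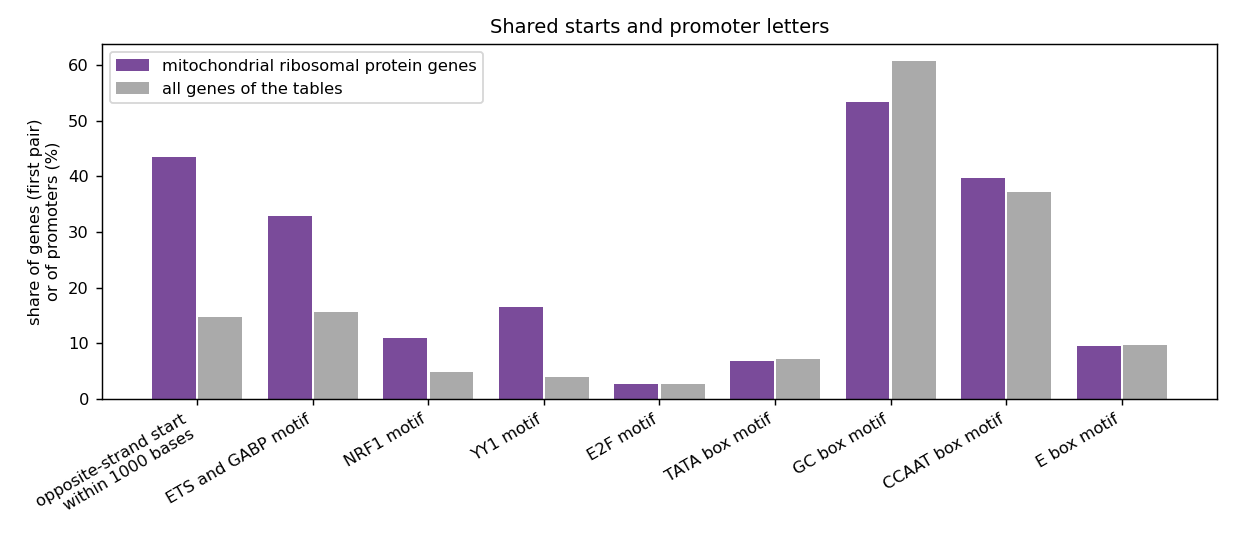
Share of the members and of all genes of the tables (vertical axis, percent) with an opposite-strand start within 1000 bases (first pair of bars, protein-coding genes) and share of their promoters that hold each motif (other pairs). Bars of the members are higher for opposite-strand starts and for ETS, NRF1 and YY1 letters, and lower for GC box letters. They are near those of all genes for E2F, TATA box, CCAAT box and E box letters.

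Other gene lists of mitochondrial translation had medians nearer 0 than the ribosomal proteins before the length and expression trend was removed. After its removal the assembly genes stood at -0.04 with E2F3a and -0.03 with cocaine, against -0.04 and -0.04 for the ribosomal proteins. None of the genes of these lists passed an adjusted p of 0.05. Among 24 measured genes of ribosome assembly and ribosomal RNA modification, the medians of the authors' values were -0.07 with E2F3a and -0.13 with cocaine. At an unadjusted p under 0.05, 1 of the 24 was lower with cocaine, against 7.51% of all genes. It was Rpusd4, a pseudouridine synthase listed at -0.33 in the authors' deposited table. Eral1, a GTPase that guards the small subunit RNA, was listed there at -0.17 with cocaine and at -0.16 with E2F3a, and neither passed. Among 13 initiation, elongation and release factors the medians were -0.03 and -0.06, and 0 passed an unadjusted p of 0.05 in either comparison. The elongation factor Tsfm was listed at -0.18 with E2F3a and the release factor Mtrf1 at -0.22 with cocaine in the authors' deposited tables.

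The 20 mitochondrial aminoacyl-tRNA synthetase and related genes, which load amino acids onto tRNAs, had medians of 0.02 with E2F3a and -0.01 with cocaine in the authors' deposited tables. The 16 genes of mitochondrial DNA upkeep and transcription had -0.01 and -0.03. In these 2 lists 0 genes passed an unadjusted p of 0.05. The 13 regulators of mitochondrial biogenesis had medians of 0.06 and 0.06, with 0 past an unadjusted p of 0.05. With the length and expression trend removed, their medians were 0.01 with E2F3a and -0.09 with cocaine, so the sign turned with cocaine. The smallest unadjusted p of this list in the authors' moderated test were 0.0599 with E2F3a, for Esrra at -0.20, and 0.105 with cocaine, for Myc at -0.41. The coactivator Ppargc1a was listed at 0.31 with E2F3a (unadjusted p 0.123) in the authors' deposited tables. Nrf1 was listed there at -0.14 with cocaine (unadjusted p 0.117), and none of these genes passed. The 7 mitoribosomal and membrane insertion genes that the name rule misses had -0.07 and -0.07, among them Dap3 at -0.12 with E2F3a and Chchd1 at -0.21 with cocaine.

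Gene groups outside this system also had negative medians. The 83 respiratory chain genes had medians of -0.09 with E2F3a and -0.17 with cocaine, and the 80 cytosolic ribosomal protein genes -0.09 and -0.30, in the authors' deposited tables, so negative medians were not limited to the mitochondrial ribosome. With the length and expression trend removed, the respiratory chain stood at 0.01 and -0.06, and the cytosolic ribosomal proteins at 0.02 and -0.22. Markers of blood cells had medians of -0.87 and -1.54 over 5 genes. All 5 were lower at an unadjusted p under 0.05 in each comparison, with 0 past the adjusted p. Over all genes, 0.409% were lower at that unadjusted p with E2F3a and 7.51% with cocaine. Leukocyte markers had -0.44 and -1.07 over 10 genes, and microglia markers -0.00 and -0.46 over 10, with 9 and 5 of them lower at an unadjusted p under 0.05 with cocaine. Markers of accumbens neurons, such as Drd2 and Adora2a, had -0.05 and 0.09 over 10 genes, with 0 past that p, and their median level was 6.70 on the scale per kilobase. Astrocyte markers had 0.22 with E2F3a and -0.21 with cocaine over 6 genes. With cocaine, 3 of the 6 were above 0, Slc1a2 at 0.39, Gja1 at 0.09 and Slc1a3 at 0.03, and 3 were below. Of the 3 below, Gfap at -0.60 and Aldh1l1 at -0.50 were lower at an unadjusted p under 0.05, and Aqp4 at -0.45 was not. Oligodendrocyte markers had 0.15 and -0.03 over 6 genes, 3 measured cortical neuron markers 0.66 and -0.34, and 2 of choroid plexus and ependyma 0.41 and 0.13, with 0 past that p. The part of these cell types in the members' values was not tested.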

How the data were processed

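Per the labels' protocols, TruSeq v2 libraries of poly-A RNA were read single-end on an Illumina HiSeq. Tools named without roles in the submitters' processing notes are TopHat2 2.0.9, HTSeq 0.6.0 and Bowtie2 2.1.0, with the build mm10. For normalization, filters and annotation release nothing is given in the sources used here. There are 2 tables, which the authors deposited with, per the file headers, log2 fold change and mean log2 expression, t and log odds (score columns), and unadjusted and adjusted p-values, under column names of limma. No refit was possible, so the authors' moderated test, adjusted over 14667 genes, was used as deposited. Depth per library is unknown.

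Dividing a log2 fold change by its t gave the standard error, which was multiplied by 2.19 for intervals. Lengths, overlaps and neighbours came from GENCODE M21 (mm10), with 1 member matched by symbol. The trend was a polynomial of degree 3 in log2 length and mean expression. Members and lists were chosen with earlier results of these data known. Up to 6 genes per subunit and direction were named by smallest unadjusted p, with 3 at each end of the level scale, the Mrps18 paralogs, Mrps30 and Mrps36, and up to 3 per list; genes named for a role, neighbour or motif were chosen after their values were seen. Of 78 annotated names that match the rule, Mrpl58 is listed as Ict1 and Mrpl53 is not analysed here. Alternatives were another threshold, filter, summary, placement, centring and trend removal. Scripts were tested on simulated data with 200 changed genes, using Python 3.11.15, numpy 2.4.6, scipy 1.17.1, pandas 2.3.3 and matplotlib 3.10.9.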

Additional observations from a re-analysis of the deposited data

How the results depend on the processing

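Of 52 values computed under other settings, 50 kept their direction and, where they had one, their side of the threshold. Some of the 50 were fixed in advance. Centring on the median of all genes cannot change the difference between the subunits. No gene passed an adjusted p under 0.1 in the authors' moderated test, so counts at that threshold or by structure had to be 0. The values outside the 50 were both in the cocaine comparison. Counting by an unadjusted p under 0.05 gave 4 lower members in place of 0, a share near that of all genes. Removing the length and expression trend turned the difference between the large and the small subunit to 0.020, against -0.03 as reported; the cause was not tested. Removal of that trend also brought the median of all members to -0.04 with E2F3a, against -0.10, and to -0.04 with cocaine, against -0.16. With subunits placed by structure the difference was -0.05 with cocaine, and with means in place of medians -0.00. Above the 25th percentile of mean expression, a floor that 71 of 76 members pass, the medians were -0.10 with E2F3a and -0.15 with cocaine. No paired analysis was possible because the tables used here hold no columns per library, and for the same reason leaving out each mouse in turn was not run. With intervals of 0.28 and 0.30 to each side for the median member, changes of up to about 1.21-fold and 1.23-fold in a single gene were within its error.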
